A study of Homo sapiens with 44 samples.

Results

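The OAS family and double-stranded RNA sensors of human cells were examined as 9 genes, taken by symbol from a count table of 40663 gene symbols. They comprise OAS1, OAS2, OAS3 and OASL of the OAS family, the RIG-I-like receptors IFIH1 (MDA5) and DHX58 (LGP2), the endosomal receptor TLR3, the kinase EIF2AK2 (PKR) and the RNA editing enzyme ADAR. RNA-seq was performed on Ccd18-Co, a line of human colon fibroblasts, in 44 libraries that formed 11 groups of 4 replicates. Cells had been kept without serum for 72 h and then left unstimulated or given a single recombinant cytokine for 24 h, namely IL-1β at 0.1 ng/ml, or IFNα, IFNγ, TGF-β1, TNF, OSM, IL-6, IL-13, IL-17A or IL-22 at 10 ng/ml. The IL-1β dose is that of the study's methods. A figure legend of the study gives a lower IL-1β dose for this experiment, so the dose is uncertain. All groups share the cell line and the serum-free medium, so the responses are those of 1 line, and no source used here says whether replicates were separate cultures. The p-values therefore measure the spread between these libraries, which may be technical.

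Libraries held between 742173 and 2213424 estimated counts, with a median of 1480883, and 9513 genes passed the filter on low counts. Levels are given as CPM, the counts-per-million scale of edgeR, in which each count is set against the normalized total of its library. A level of 0 in a library allows up to 3 counts, which covers counting error only. All 9 fibroblast markers examined were measured, with a summed level of 17243 to 52357 CPM per library. Markers of plasmacytoid dendritic cells, the professional producers of IFNα, summed to at most 1.86 CPM and those of leukocytes to at most 4.01 CPM. Endothelial markers summed to at most 2.65 CPM, those of glia and neurons to at most 2.81 CPM and epithelial ones to at most 26.6 CPM. The smooth muscle markers DES, MYH11 and ACTG2 were not near 0, with a summed level of 217 to 1094 CPM per library.

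OAS1, OAS2 and OAS3 are enzymes that bind double-stranded RNA and make 2-5A oligonucleotides, a signal that leads to the breakdown of RNA in infected cells, whereas OASL lacks this enzymatic activity and binds RIG-I. MDA5 and LGP2 recognize viral double-stranded RNA in the cytosol and TLR3 does so in endosomes. PKR halts translation when it meets such RNA by phosphorylating eIF2α, and ADAR edits adenosines in it to inosines, so that the cell's own duplexes are less readily sensed. Type I interferons such as IFNα act through a complex holding STAT2 and IRF9 that binds interferon-stimulated response elements (ISREs), and IFNγ acts mainly through factors that bind GAS elements.

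Reference promoters, 250 bases before to 50 bases after an annotated start site, were matched by symbol in RefSeq (GRCh38.p14) for 6 of the 9 genes. No sequence is shown for OAS2, OASL and DHX58. The promoters were searched on both strands for the ISRE core GAAANNGAAA, in which 2 GAAA runs lie 2 bases apart, and for the closer spacing GAAANGAAA, which was added after the sequences had been seen and can overlap the first. GAAANNGAAA was present in 3.57% of all 35116 promoters in the reference, GAAANGAAA in 3.12%, and one or the other in 6.4%. Of the 6 genes, 5 held a match of either spacing, and the 3 ADAR promoters held none. OAS1 was among the 5 only through GAAANGAAA, the spacing added after the sequences had been seen. The count of 5 is therefore not independent of these sequences and cannot be weighed against the 6.4%. The match nearest to the start site is shown for each of the 5, with 10 bases on either side, because it lies in genes whose transcripts are compared between the interferons below. Capitals mark the match and each run reads 5′ to 3′ on the strand of the gene. A match describes letters only and was not tested for binding.
OAS1 (chr12:112906935-112906963, plus strand): cccttctgagGAAACGAAAccaacagcag
OAS3 (chr12:112938452-112938481, plus strand): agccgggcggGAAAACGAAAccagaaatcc
IFIH1 (chr2:162318686-162318715, minus strand): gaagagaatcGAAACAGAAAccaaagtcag
EIF2AK2 (chr2:37156967-37156996, minus strand): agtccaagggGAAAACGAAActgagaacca
TLR3 (chr4:186069142-186069171, plus strand): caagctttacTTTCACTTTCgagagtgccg
With the first transcribed base as 1 and the base before it as -1, these matches ran from -17 to -9 in OAS1, -12 to -3 in OAS3, -21 to -12 in IFIH1, -6 to 4 in EIF2AK2 and -4 to 6 in TLR3. The TLR3 match lay on the opposite strand to the gene. OAS3 held another GAAANNGAAA at -143 to -134, which overlapped a GAAANGAAA at -148 to -140. IFIH1 held further GAAANNGAAA matches on the strand opposite to the gene, at -159 to -150 and at -153 to -144, which overlapped each other. The GAS core TTCNNNGAA, found in 7.66% of all promoters, was present once in the OAS1 promoter and at 2 places in that of TLR3. A κB motif, found in 11.3% of all promoters, matched at 2 overlapping places in OAS3 and once in IFIH1.

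OAS1 (GRCh38 chr12:112905856-112933219), OAS3 (chr12:112938051-112976460) and OAS2 (chr12:112978395-113011723) lie next to each other on the plus strand, and OASL (chr12:121017763-121039246, minus strand) is further along the same chromosome. An annotated antisense lncRNA, ENSG00000257452, overlaps OAS1, OAS3 and OAS2, and kallisto was run at its defaults, which do not use strand, so reads of a gene and of this antisense RNA cannot be told apart where they overlap. Its transcripts shared 166 of the 13571 distinct 31-base words of OAS1. IFIH1 (chr2:162267074-162318684) and EIF2AK2 (chr2:37099210-37157522) lie on the minus strand of chromosome 2, DHX58 (chr17:42101404-42112714) and ADAR (chr1:154581695-154628013) also on minus strands, and TLR3 (chr4:186068911-186088073) on the plus strand. All 9 genes are annotated as protein coding.

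Before any cytokine was added, the genes fell into those that were detected and those that were not. OAS1, OAS2, OASL and IFIH1 were at 0 in all 4 unstimulated libraries, and DHX58 had a single count in 1 of them. EIF2AK2 was measured at 55.6 ± 12.7 CPM (SD, n = 4), ADAR at 26.4 ± 12.0 CPM, TLR3 at 3.62 ± 2.50 CPM and OAS3 at 2.24 ± 1.86 CPM. So the kinase and the editing enzyme were expressed in resting fibroblasts, while OAS1, OAS2, OASL and IFIH1 were not detectable at this depth. RIGI, the gene of the cytosolic receptor RIG-I, is outside this gene set and was at 23.6 ± 4.89 CPM in unstimulated cells.

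**Figure D1:**
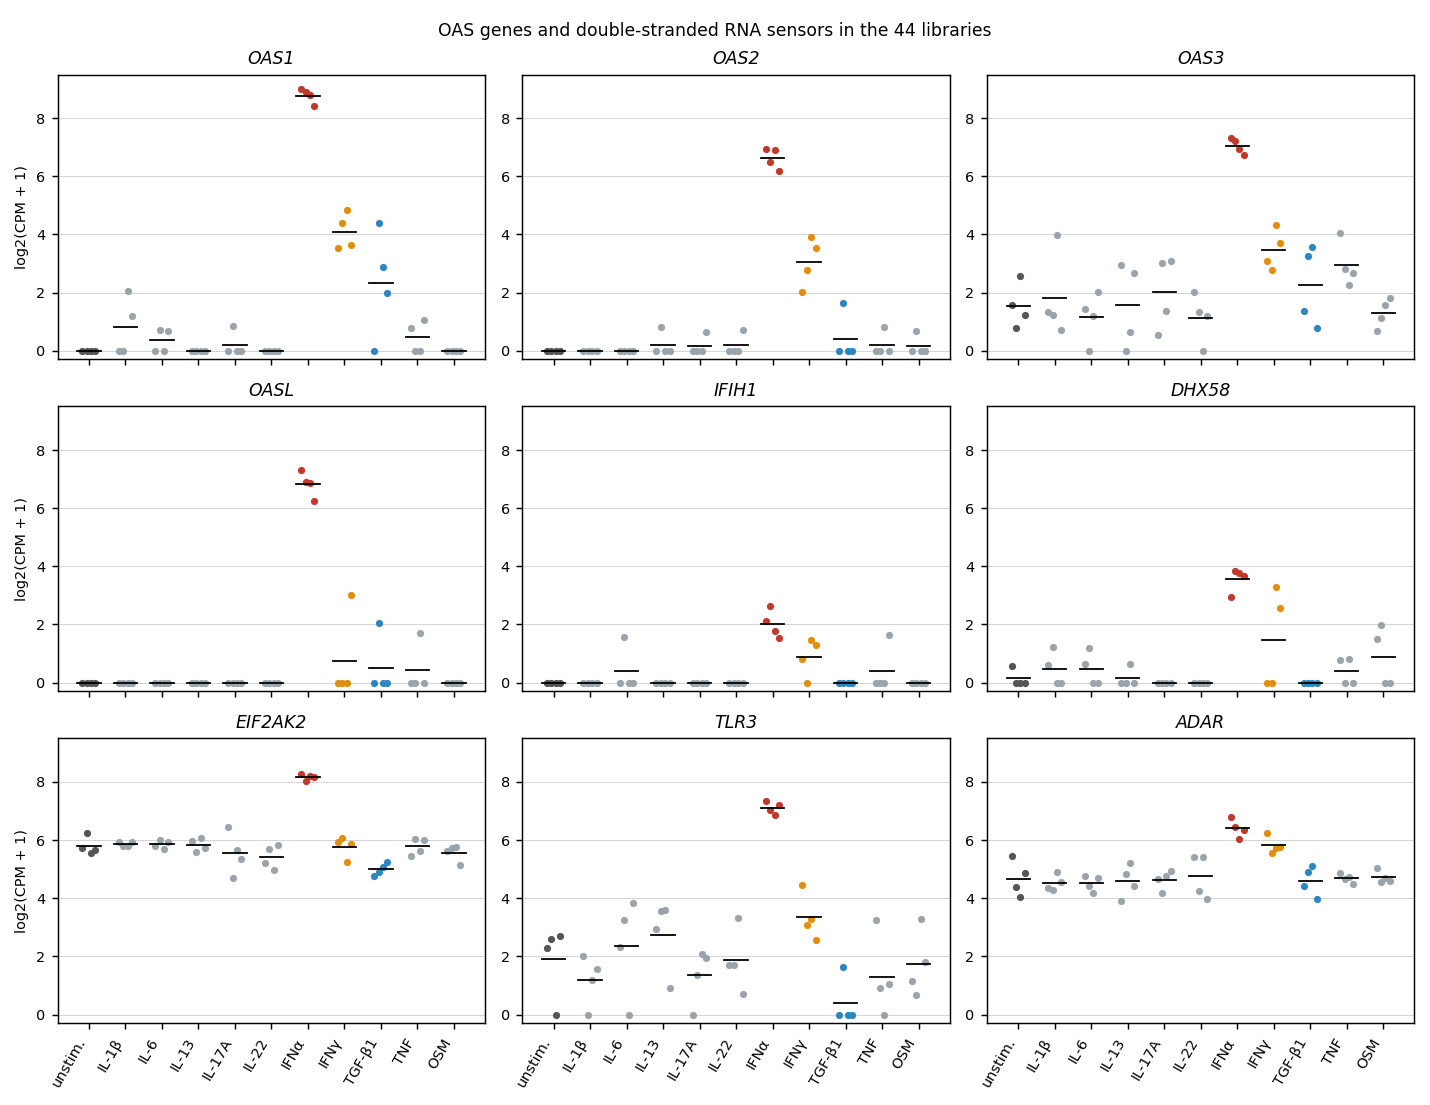
Level of each of the 9 genes in the 44 libraries, as log2(CPM + 1) on the vertical axis, with 1 point per library and a black bar for the mean of the 4 log values of each group. The IFNα libraries (red) are the highest group for every gene, the IFNγ libraries (orange) are above the unstimulated ones for OAS1, OAS2, OAS3 and ADAR, and EIF2AK2 and ADAR are present in all groups.

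The first question was which of the 9 genes each cytokine changed. With IFNα, all 8 members that could be tested were called higher than in unstimulated cells, a call being an adjusted p under 0.05 with an absolute log2 fold change above 1.5 in edgeR's quasi-likelihood test. Over all genes, 2.46% were called higher in this comparison. The IFNα libraries lay above all unstimulated libraries for the same 8 genes, as they did for 7.98% of all genes tested. OAS2, OASL and DHX58 entered the test only because of their counts in the IFNα libraries, so their place among the 8 is not independent of the outcome. IFIH1, with 32 counts in the 44 libraries together, did not enter it. In bulk libraries, more cells that express a gene and more RNA per cell cannot be told apart.

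Within the OAS family, OAS1 went from 0 in each unstimulated library to 507, 475, 442 and 344 CPM in the IFNα libraries. These 4 values lay close together and far from every other group, and their mean of 442 ± 70.5 CPM was at least 226-fold higher than the level that 3 counts per library would give (adjusted p = 1.13e-12, edgeR). OAS2, the mid-sized enzyme, was measured at 122, 89.5, 118 and 71.6 CPM, at least 51.3-fold above that floor (adjusted p = 1.92e-10, edgeR). OAS3, the largest enzyme of the family, was at 1.96, 0.729, 4.93 and 1.37 CPM in unstimulated cells and at 159, 147, 121 and 105 CPM with IFNα. Since OAS3 had counts in both groups, its change could be fitted, and it rose by 5.84 ± 0.79 on the log2 scale (SE, adjusted p = 2.89e-07, edgeR), a 57.4-fold change. Without unstimulated replicate 3, the highest control, the rise of OAS3 was 6.49 on the log2 scale. OASL was at 158, 119, 116 and 74.7 CPM against 0 in unstimulated cells, at least 59.8-fold higher (adjusted p = 3.83e-06, edgeR). For OASL the call depended on the tool, since DESeq2 gave an adjusted p of 0.428 at a log2 fold change of 9.97.

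The sensors of double-stranded RNA rose to different levels. TLR3 was at 3.92, 5.10, 0 and 5.46 CPM in unstimulated cells and at 163, 129, 114 and 146 CPM with IFNα, a rise of 5.22 ± 0.80 on the log2 scale (SE, 37.2-fold, adjusted p = 3.83e-06, edgeR). The lowest IFNα library of TLR3 was thus well above the highest unstimulated one. DHX58, the regulator of RIG-I and MDA5 signalling, was at 6.61, 13.2, 12.7 and 11.8 CPM with IFNα. Against its single count in the controls this is a ratio of 68.1, with a counting interval of 11.8 to 2729 (adjusted p = 0.0024, edgeR). Without unstimulated replicate 1, which held that count, the IFNα level of DHX58 was at least 5.24-fold above the floor. IFIH1, the gene of MDA5, reached only 3.31, 5.27, 2.38 and 1.87 CPM, at least 1.64-fold above the floor. These values rest on 2.59 to 7.74 estimated counts per library, none of them whole, although transcripts of IFIH1 shared no 31-base word with those of another gene in the annotation used here. The reason for the split counts was not tested.

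EIF2AK2 and ADAR, the members with a clear resting level, had the smallest fitted changes of the 8. EIF2AK2, the gene of PKR, was at 52.4, 74.4, 46.4 and 49.2 CPM in unstimulated cells and at 311, 263, 292 and 285 CPM with IFNα. It rose by 2.37 ± 0.24 on the log2 scale (SE, 5.18-fold, adjusted p = 8.97e-11, edgeR). ADAR was at 42.6, 19.7, 15.5 and 28.0 CPM in unstimulated cells and at 111, 86.9, 65.1 and 79.7 CPM with IFNα, and rose by 1.68 ± 0.31 (SE, log2 scale, 3.20-fold, adjusted p = 7.87e-05, edgeR). Neither gene's groups overlapped, and the highest unstimulated ADAR library, replicate 1, was still below the lowest IFNα library. The estimated counts of EIF2AK2 were not whole in 37 of the 44 libraries, and 7.78% of its 31-base words occurred in transcripts of other genes, among them 375 in the processed pseudogene ARL14EPP1, which lies within EIF2AK2 on the opposite strand (chr2:37148530-37149304). The level of EIF2AK2 is uncertain to that extent.

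With IFNγ, the type II interferon, 2 of the 8 members tested were called higher, OAS1 and OAS2, where 2.40% of all genes were. OAS1 was measured at 10.5, 19.9, 27.7 and 11.4 CPM, at least 8.91-fold above the floor of the controls (adjusted p = 6.82e-06, edgeR). OAS2 was at 3.01, 5.81, 13.9 and 10.7 CPM, at least 4.27-fold higher (adjusted p = 2.15e-05, edgeR). All 4 libraries of both genes were above the controls, which were at 0. With OAS3 and ADAR, 4 members lay above all unstimulated libraries in this comparison, against 6.07% of all genes. When the filter and fit used only the 8 libraries compared, OAS2 had too few counts to be tested.

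ADAR passed the test on adjusted p alone with IFNγ, as 5.52% of all genes did in the upward direction. It was at 75.3, 46.5, 52.0 and 53.4 CPM, and its change of 1.09 ± 0.31 on the log2 scale was under the fold threshold (SE, 2.12-fold, adjusted p = 0.0146, edgeR). That p rose to 0.0686 without unstimulated replicate 2, to 0.0606 without unstimulated replicate 3 and to 0.0642 without IFNγ replicate 1. OAS3, at 7.53, 5.81, 19.1 and 12.1 CPM, lay above all 4 unstimulated libraries but did not pass (log2 fold change 2.27 ± 0.80, adjusted p = 0.0586, edgeR). Leaving out unstimulated replicate 3 gave OAS3 an adjusted p of 0.0346, and leaving out IFNγ replicate 2 gave 0.0326.

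The remaining members showed no call with IFNγ. DHX58 was at 0 in IFNγ replicates 1 and 2 and at 8.67 and 4.98 CPM in replicates 3 and 4 (adjusted p = 0.0553, edgeR), a value that fell to 0.0498 without unstimulated replicate 1, 0.027 without IFNγ replicate 1 and 0.0216 without IFNγ replicate 2. OASL was at 0 in 3 IFNγ libraries and at 7.12 CPM, or 10 counts, in replicate 4 (adjusted p = 0.106, edgeR). TLR3 was at 21.1, 7.48, 8.67 and 4.98 CPM, with a log2 fold change of 1.52 and a 95% interval from -0.09 to 3.13. For EIF2AK2 the counts were higher and the interval narrower. Its IFNγ libraries were at 60.3, 65.6, 37.3 and 57.0 CPM, the log2 fold change was -0.01, and the interval ran from -0.49 to 0.47. IFIH1 had at most 2 counts after rounding in any IFNγ library.

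The 2 interferons were then compared with each other in the same model, because a call with one and not with the other does not show that they differ. Of the 8 members tested, 6 were called higher with IFNα than with IFNγ, namely OAS1, OAS2, OAS3, OASL, EIF2AK2 and TLR3, against 1.68% of all genes. The difference was largest for OASL, at 5.88 ± 0.92 on the log2 scale (SE, adjusted p = 0.000122, edgeR), a comparison that rests on 1 IFNγ library with counts. It was 4.68 ± 0.49 for OAS1 (25.6-fold, adjusted p = 2.21e-08), 3.58 ± 0.57 for OAS2 (12.0-fold, adjusted p = 2.75e-05) and 3.57 ± 0.68 for OAS3 (11.9-fold, adjusted p = 0.00024). TLR3 differed by 3.70 ± 0.73 (13.0-fold, adjusted p = 0.000369) and EIF2AK2 by 2.38 ± 0.24 (5.21-fold, adjusted p = 3.2e-10). The IFNα libraries were above all IFNγ libraries for each of these 6 genes, as they were for 6.92% of all genes. OAS2 and OASL passed the filter on low counts only through the IFNα libraries, so their place among the 6 is not independent of the outcome. DESeq2 called 5 of them and gave OASL an adjusted p of 0.654 at a log2 difference of 5.99. Without IFNγ replicate 4, OASL was at 0 in the remaining IFNγ libraries, and the difference is then a bound of at least 47.7-fold. Without IFNγ replicate 1, the log2 difference of TLR3 was 4.29.

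For ADAR and DHX58 a difference between the interferons was not shown. The interval for ADAR ran from -0.01 to 1.19 on the log2 scale around 0.59 (adjusted p = 0.247, edgeR). DHX58 was at 11.1 ± 3.03 CPM with IFNα and 3.41 ± 4.22 CPM with IFNγ, and its interval of -0.23 to 3.59 spans both no difference and a large one (adjusted p = 0.326, edgeR). In both genes the IFNα and IFNγ libraries overlapped.

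**Figure D2:**
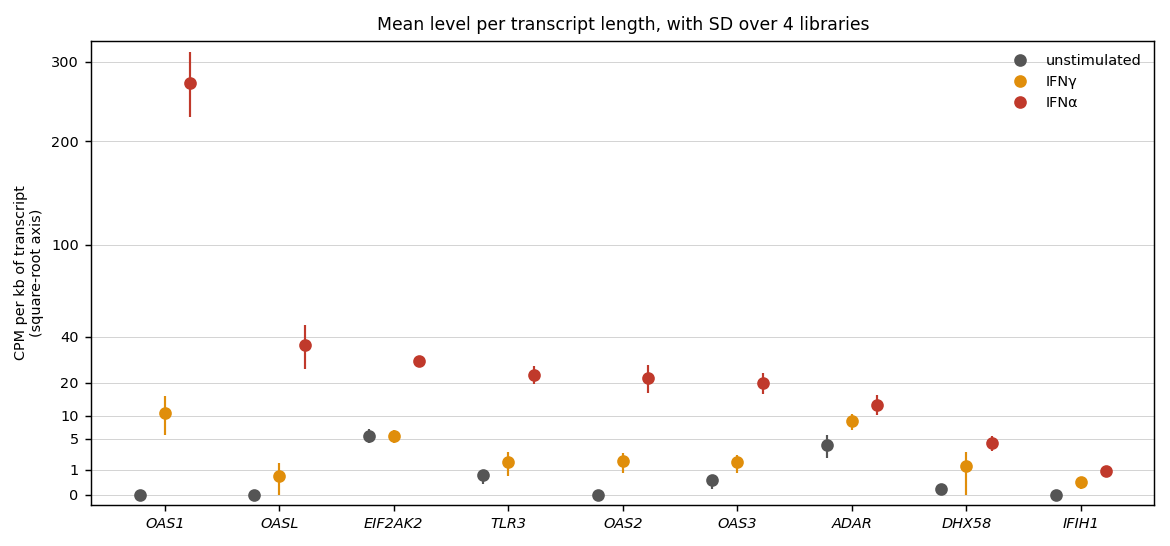
Mean level of each gene per kilobase of its reference transcript, on a square-root axis, in unstimulated, IFNγ and IFNα libraries, with lines for ± 1 SD over 4 libraries cut off at 0. OAS1 stands at 271 CPM per kb with IFNα, while the other genes are between 0.895 and 35.7.

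Levels of different genes can be set side by side only per length, here CPM per kilobase of the single reference transcript, a measure that uses reads but not which isoform they came from. On this scale OAS1 reached 271 ± 43.2 CPM per kb with IFNα (SD, n = 4), followed by OASL at 35.7 ± 10.4, EIF2AK2 at 28.8 ± 2.01, TLR3 at 23.0 ± 3.51, OAS2 at 21.7 ± 5.19 and OAS3 at 20.1 ± 3.74. The last 5 lay within or near each other's spread. The measure depends on the length chosen: over the union of all annotated exons, OAS1 was at 34.0 and EIF2AK2, the next, at 26.1 CPM per kb. Per transcript length, ADAR was at 13.0 ± 2.88, DHX58 at 4.28 ± 1.17 and IFIH1 at 0.895 ± 0.418 CPM per kb. RIGI, the gene of the third RIG-I-like receptor, was not among the 9 and serves as a reference here, at 301 ± 8.81 CPM per kb with IFNα. So per reference transcript length, RIGI was the highest of this receptor family and IFIH1 was near the detection limit. The level of RIGI over union exons was not computed, and that of IFIH1 rests on the few split counts described above.

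In unstimulated cells the order per length was another one, with EIF2AK2 at 5.57 ± 1.28 and ADAR at 4.00 ± 1.81 CPM per kb ahead of TLR3 at 0.602 ± 0.416 and OAS3 at 0.340 ± 0.281. With IFNγ, OAS1 was at 10.7 ± 4.96 and ADAR at 8.60 ± 1.92 CPM per kb, EIF2AK2 was at 5.52 ± 1.24, and the other members were at or below 1.81.

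**Figure D3:**
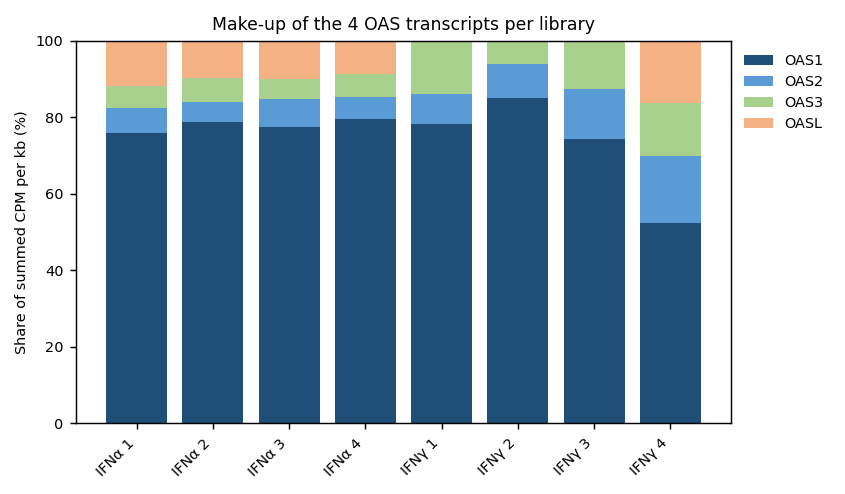
Share of each OAS gene in the summed level per kilobase of the 4 genes, in percent, for each IFNα and IFNγ library. OAS1 makes up 75.9 to 79.6% in the IFNα libraries and 52.5 to 85.1% in the IFNγ libraries, and OASL is absent from 3 of the 4 IFNγ libraries. Over union exons, which are not plotted, OAS1 makes up 46.6 to 52.4% and 24.1 to 64.6%.

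The make-up of the OAS family was compared between the interferons in the same way. OAS1 made up 77.9 ± 1.64% of the summed OAS level per kilobase with IFNα and 72.5 ± 14.1% with IFNγ (SD, n = 4 each, exact permutation test, two-sided, p = 0.657). OAS2 made up 6.21 ± 0.88% with IFNα and 11.8 ± 4.37% with IFNγ, and OAS3 made up 5.78 ± 0.378% and 11.6 ± 3.68%. For OAS2 and OAS3 every IFNγ library had the larger share, and the exact permutation test gave p = 0.0286, the smallest that 4 against 4 allows. After adjustment over the 4 genes this became 0.0571, so neither passed. With 4 libraries against 4, OAS2 and OAS3 alone could not have passed after adjustment, whatever their shares, so this result does not decide whether the shares differ. OASL made up 10.1 ± 1.31% with IFNα and 0, 0, 0 and 16.4% in the IFNγ libraries (exact permutation test, p = 0.143, adjusted 0.190). These shares depend on the length chosen. Over the union of all annotated exons OAS1 made up 49.7% with IFNα and 47.8% with IFNγ, OAS2 13.0% and 23.5%, OAS3 10.8% and 21.0%, and OASL 26.5% and 7.77%. The IFNγ shares rest on few counts, 14 to 32 per library for OAS1.

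TGF-β1, a cytokine that drives matrix production in fibroblasts, gave a mixed picture. OAS1 was the single member called higher, where 0.641% of all genes were. Its libraries were at 0, 20.2, 6.35 and 2.94 CPM, or 0, 19, 7 and 4 counts, at least 3.77-fold above the floor of the controls (adjusted p = 0.0022, edgeR). Replicate 1 was at 0 like the controls, so the groups overlapped. Without TGF-β1 replicate 2 the bound fell to at least 1.58-fold. The call held when each library was left out in turn, with edgeR's adjusted p between 0.000246 and 0.0258, but OAS1 had too few counts to be tested when the filter and fit used only the 8 libraries compared. OAS3 had 2, 8, 12 and 1 counts (adjusted p = 0.502), and OAS2 and OASL had counts in TGF-β1 replicate 2 only, 2 and 3 of them.

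The summed level of other interferon-induced genes was also higher in TGF-β1 replicates 2, 3 and 4. The summed level of IFIT1, IFIT2, IFIT3, IFIT5, MX1, MX2 and RSAD2, a list of antiviral effectors, was 66.3 CPM in replicate 1 and 355, 333 and 512 CPM in replicates 2, 3 and 4, against 136 to 174 CPM in unstimulated cells. Replicate 1 was lowest for OAS1 too. The effectors were highest in replicate 4, where OAS1 was at 2.94 CPM, and OAS1 was highest in replicate 2. Of these 7 genes IFIT2, IFIT3 and RSAD2 were called higher and none lower. IFIT2, for instance, rose from 7.71 ± 2.70 to 49.6 ± 32.6 CPM (adjusted p = 0.00196, edgeR). The part of these movements in the result for OAS1 was not tested.

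EIF2AK2 was lower with TGF-β1 on adjusted p alone, in which 3.08% of all genes were. Its libraries were at 26.5, 28.7, 32.7 and 37.4 CPM, all below the 4 unstimulated ones, as were those of 5.37% of all genes, and it fell by 0.82 ± 0.25 on the log2 scale (SE, adjusted p = 0.0375, edgeR), short of the fold threshold. Without unstimulated replicate 2 the adjusted p of EIF2AK2 was 0.183 at a log2 fold change of -0.65. Without TGF-β1 replicates 1, 2 and 3 it was 0.123, 0.0939 and 0.0777, while the log2 fold change stayed at -0.74, -0.78 and -0.84. TLR3 was at 0, 2.13, 0 and 0 CPM with TGF-β1 against a mean of 3.62 CPM in unstimulated cells, 1 of whose libraries was also at 0 (log2 fold change -2.84 ± 1.29, adjusted p = 0.214, edgeR). ADAR, at 24.3 ± 8.45 CPM, had a change of -0.15 with an interval from -0.80 to 0.50.

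**Figure D4:**
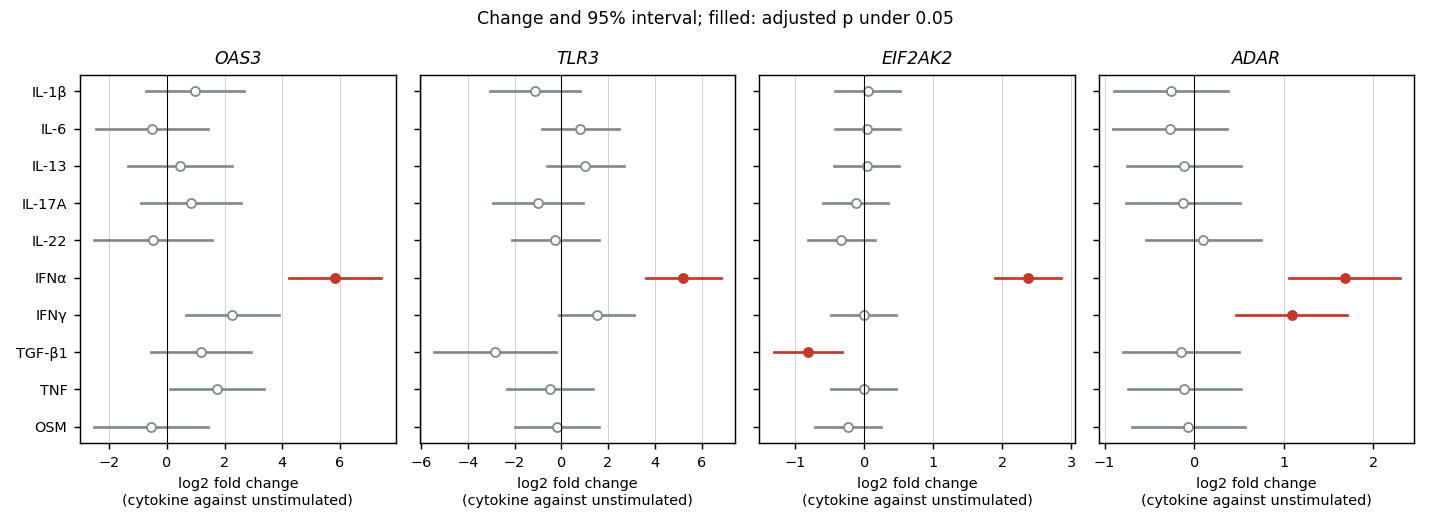
Log2 fold change against unstimulated cells for the 4 members with counts in most unstimulated libraries, with 95% intervals and 1 row per cytokine. Filled red points have an adjusted p under 0.05, which holds for IFNα in all 4 genes, IFNγ in ADAR and TGF-β1 in EIF2AK2, where the change is negative.

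With the other 7 cytokines no member was called in either direction by edgeR or by DESeq2. The shares of all genes called in either direction were 2.78% for IL-1β, 0.0105% for IL-6, 1.47% for IL-13, 0.452% for IL-17A, 0.00% for IL-22, 4.19% for TNF and 1.30% for OSM. Each tool gave 2 results with an unadjusted p under 0.05, namely OAS1 with IL-1β and OAS3 with TNF. Their adjusted p-values in edgeR were 0.24 and 0.176. TNF and IL-1β, both of which act through NF-κB, also gave no member called when compared directly, where 0.368% of all genes were, and no member had an unadjusted p under 0.05 there by either tool.

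The precision differs by gene. For EIF2AK2 the changes with these 7 cytokines lay between -0.33 and 0.05 on the log2 scale, and the 95% intervals together ran from -0.82 to 0.52. For ADAR the changes lay between -0.27 and 0.10, with intervals between -0.91 and 0.74. Changes of these 2 genes as large as the rise with IFNα were therefore outside every one of these intervals. OAS3 and TLR3, with few counts, had wider intervals, and for OAS3 with TNF the interval ran from 0.11 to 3.37 around 1.74. For OAS1, OAS2, OASL, IFIH1 and DHX58, 1 to 5 counts in a library were the most seen with these cytokines.

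Single libraries stood apart. In IL-1β replicate 3, OAS3 was at 14.6 CPM, or 23 counts, while the other 3 IL-1β libraries were at 0.649 to 1.51 CPM, and OAS1 had 5 counts there. The summed level of the 7 antiviral effectors was 274 CPM in this library and 90.3 to 145 CPM in the other 3. In TNF replicate 1, OAS3 was at 15.5 CPM and TLR3 at 8.47 CPM, with the other TNF libraries at 3.75 to 6.03 and 0 to 1.07 CPM, while the summed level of the effectors, 110 CPM, was close to the 92.7 to 106 CPM of the others. IFIH1 had 4 counts in TNF replicate 4 and none in the other TNF libraries.

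The order of the 11 groups was read from their means, and neighbours were called separate where their libraries did not overlap. IFNα was first for all 9 genes. For OAS1, OAS3, OASL, IFIH1 and TLR3 the step from IFNα to IFNγ, which came second, was the only one without overlap. The IFNα libraries lay above all IFNγ libraries for 6.92% of all genes tested. The step of IFIH1 lay within 3 counts, since its lowest IFNα library had 3 rounded counts and its highest IFNγ library 2. For OAS2 the step from IFNγ at 8.34 ± 4.86 CPM to TGF-β1 at 0.532 ± 1.06 CPM was also free of overlap. Its lowest IFNγ library had 4 counts and its highest TGF-β1 library 2. For ADAR the IFNα and IFNγ libraries overlapped, and IFNγ at 56.8 ± 12.7 CPM was separate from the next group, IL-22 at 29.2 ± 14.9 CPM. The share of all genes without overlap was not computed for these steps of OAS2 and ADAR. EIF2AK2 had IL-1β in second place at 57.5 ± 3.10 CPM, IFNγ in seventh at 55.0 ± 12.4 CPM and TGF-β1 in last at 31.3 ± 4.80 CPM, with overlap at every step below IFNα. DHX58 had overlap at every step, since its lowest IFNα library at 6.61 CPM was below IFNγ replicate 3.

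The partners of these genes were counted from lists chosen with results of these data known. Of the 4 partners of the 2-5A pathway, all tested, CNP rose with IFNα (1.88 ± 0.38 on the log2 scale, adjusted p = 0.00037, edgeR) and none passed with IFNγ. PDE12, which degrades 2-5A, was at 7.39 ± 0.901 CPM with IFNα and 15.3 ± 3.05 CPM without (adjusted p = 0.1, edgeR). The median log2 fold change of the 4 with IFNα was 0.07, that of all genes -0.01.

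Of 14 partners of the RIG-I-like receptors and TLR3, 10 were tested, and their median log2 fold change with IFNα was 1.04. On adjusted p alone, 4 of the 10 rose with IFNα, as 475 of all 9513 genes did. RIGI, the receptor, rose 58.2-fold from 23.6 ± 4.89 to 1391 ± 40.8 CPM (adjusted p = 1.76e-22, edgeR) and DDX60, a helicase that promotes RIG-I signalling, 13.8-fold (adjusted p = 6.69e-10). TRIM25, a ubiquitin ligase for RIG-I, rose 5.18-fold and TBK1, the kinase of IRF3, 1.53-fold. With IFNγ, RIGI, TRIM25 and DDX60 rose, as 525 of all genes did, and RIGI did so 4.67-fold (adjusted p = 4.24e-10, edgeR). The direct difference between the interferons passed for RIGI (3.64 ± 0.22 on the log2 scale, adjusted p = 1.68e-16) and not for TRIM25 (adjusted p = 0.326) or DDX60 (adjusted p = 0.254).

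RIGI was also higher on adjusted p with cytokines other than the interferons. It rose 2.13-fold with IL-1β (adjusted p = 0.000914, edgeR) and 1.73-fold with TNF (adjusted p = 0.0197), and 1.88-fold with TGF-β1 (adjusted p = 0.0137). NFKB1 rose with IL-1β and TNF, and IFNAR1 and IFNAR2, the receptor chains for IFNα, rose with both as well. IFNAR2 reached 43.9 ± 6.45 CPM with TNF from 8.93 ± 2.36 CPM, a 4.87-fold change (adjusted p = 3.44e-05, edgeR).

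Of 8 partners of PKR and other eIF2α kinases, 6 were tested and none rose with either interferon. DNAJC3, which encodes the PKR inhibitor p58IPK, fell with IFNα from 1489 ± 244 to 949 ± 199 CPM (adjusted p = 0.0217, edgeR) and rose 2.28-fold with IL-1β (adjusted p = 1.97e-05) and 1.65-fold with TNF (adjusted p = 0.0085). The median change of these partners with IFNα was -0.10. Among 10 ADAR paralogs and other double-stranded RNA binding proteins, 7 were tested, and ZNFX1, an RNA helicase, rose 5.74-fold with IFNα (adjusted p = 0.000174, edgeR). ZC3HAV1, the gene of the zinc-finger antiviral protein, fell with TGF-β1 to 45.6 ± 18.3 from 86.4 ± 18.7 CPM (adjusted p = 0.0284, edgeR).

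Of 14 interferon receptor and signalling genes, 11 were tested and 6 passed in the upward direction with each interferon. Over all 9513 genes, 475 did so with IFNα and 525 with IFNγ. STAT2 rose by 2.20 ± 0.30 on the log2 scale with IFNα and by 1.93 ± 0.30 with IFNγ, and its direct difference between the interferons did not pass the test (adjusted p = 0.659, edgeR). IRF1 was lower with IFNα than with IFNγ (log2 difference -2.99 ± 0.47, adjusted p = 1.23e-05, edgeR), and USP18, which restrains type I receptor signalling, was higher with IFNα, by 4.38 ± 0.62 (adjusted p = 2.13e-06, edgeR). Of 8 other nucleic acid sensors, 3 were tested, and IFI16 rose with IFNα (6.24-fold), IFNγ (2.52-fold) and OSM (3.09-fold) and fell with TNF (adjusted p = 0.000144, edgeR). None of the 9 interferon ligand genes examined had enough counts to be tested. The 7 antiviral effectors were all called higher with IFNα and 5 of them with IFNγ, where 2.46% and 2.40% of all genes were.

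The genes most alike in pattern were found from Pearson's r over the 11 group means of log2 CPM, as a description over groups that share 1 control and 1 strong IFNα value. They were IFI27, IFIT3 and RIGI for OAS1 (r between 0.98 and 0.99), USP18, IFI27 and IFI44 for OAS2 (0.98), MX1, RIGI and MX2 for OAS3 (0.97 to 0.98), and C3AR1, HERC5 and ISG15 for OASL (0.99 to 1.00). DHX58 was most like IFI6, LY6E and OAS2 (0.97), and ADAR was most like BST2, TRIM22 and IFI35 (0.98 to 0.99). EIF2AK2 had ZCCHC2, PNPT1 and SMARCA5 (0.95 to 0.96) and TLR3 had GMPR, PNPT1 and UPF2 (0.94 to 0.96).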

How the data were processed

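Bulk RNA-seq was performed by the authors on 44 Ccd18-Co libraries made with an NEBNext Ultra II RNA kit. Per the labels and the study's methods, reads were checked with FastQC 0.11.9 and MultiQC 1.14 and quantified by the authors with kallisto 0.48.0 (genome build hg38). The deposited values are estimated counts per gene symbol, not normalized, and here they were rounded to whole counts. Estimated counts can be split between transcripts that share sequence. The authors ran kallisto at its defaults, which do not use strand, and the transcript annotation is not given in the sources used here.

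Genes were filtered with filterByExpr over the 11 groups, which left 9513, normalized by TMM and fitted with edgeR 4.0.16 (R 4.3.3) as a quasi-likelihood model with 1 coefficient per group over all 44 libraries. Benjamini-Hochberg adjustment was made over all 9513 genes. Calls required both an adjusted p below 0.05 and a log2 fold change beyond 1.5 in size, while passing the test required the former alone. Intervals are at the 95% level. Where all control libraries were at 0, folds are lower bounds against 3 counts per library. DESeq2 1.42.0 was run as an alternative, and the procedure was tested on simulated data. All 9 members were named, and list genes where called in at least 1 comparison. PDE12, TBK1, DNAJC3, IFNAR1 and ZC3HAV1 were named outside this rule, after their values were seen. Single results of some list genes are not reported here. The members and lists were chosen with earlier results of these data known. None of the 66 pairs of libraries within a group was identical. Gene positions and transcript lengths came from GENCODE 44 (GRCh38).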

Additional observations from a re-analysis of the deposited data

Results flagged for a closer look

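Within each group of 4 libraries, the gap between the most extreme library and its neighbour was compared with the group's range, over the 55 combinations of a member and a group in which some library had more than 3 counts. The limit used is set so that about 1 in 20 such combinations of normally distributed values stand out by chance, and 4 of the 55 did. For counts near 0 the chance rate is not known, so the 4 cannot be weighed against it. OAS3 in IL-1β replicate 3 was at 14.6 CPM, with the other 3 libraries at 0.649 to 1.51 CPM. OASL in IFNγ replicate 4 was at 7.12 CPM and 0 in the other 3. IFIH1 in TNF replicate 4 was at 2.14 CPM and 0 in the other 3, and TLR3 in TNF replicate 1 was at 8.47 CPM with the others at 0 to 1.07 CPM. The cause was not tested.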

How the results depend on the processing

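Of 1112 recomputed values for 85 changes of members, 1038 kept their sign and their side of the threshold, 12 no longer passed and 8 newly passed. Another 54, in 26 of the changes, took the other sign, all of them in changes that passed neither before nor after, such as OAS3 with IL-1β, at a log2 fold change of 0.98 and at -0.87 without IL-1β replicate 3. No change that passed the test took the other sign. All 8 members tested stayed called with IFNα under each alternative except DESeq2, which did not call OASL (7 called), and the number was 8 to 8 with libraries left out. With IFNγ, 4 members were called without a filter on low counts (OAS1, OAS2, OAS3 and OASL) and 1 with only the 8 libraries compared (OAS1), and leaving out a library gave 2 to 4, the highest without IFNγ replicate 2. With TGF-β1, 2 were called without a filter (OAS1 and TLR3), 0 with only the 8 libraries and 2 on adjusted p alone (OAS1 and EIF2AK2), and leaving out a library gave 1 to 1. The smaller numbers with 8 libraries come from the filter, which OAS2 and OAS1 then did not pass. For other changes the cause was not tested. The fall of EIF2AK2 with TGF-β1 had an adjusted p of 0.0803 without a filter and 0.129 with 8 libraries (edgeR), and the rise of ADAR with IFNγ one of 0.0795 with 8 libraries.

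Deviations from the group means correlated above 0.1 in 6 of 40 pairs of a cytokine library and the unstimulated library of the same number, in no cytokine in all 4 pairs, and 15 of 40 libraries correlated best with their own number, so the numbers were not taken as pairs. A replicate block left the number of members called at 8 with IFNα, 2 with IFNγ, 1 with TGF-β1 and 6 between the interferons.

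Over the union of all annotated exons, IFNα levels in CPM per kb were 34.0 for OAS1, 8.93 for OAS2, 7.36 for OAS3, 18.5 for OASL, 2.90 for DHX58, 26.1 for EIF2AK2, 18.4 for TLR3 and 6.99 for ADAR. With Spearman in place of Pearson, 1 of the 3 most alike genes was shared for OAS1 and OAS3 and none for the other 6 members tested.

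Over all genes, calls changed more than 1.5 times in these cases: IL-6 from 1 to 10 without a filter and 0 with 8 libraries, IL-17A from 43 to 86 and TNF against IL-1β from 35 to 78 without a filter, TGF-β1 from 162 to 107 with 8 libraries, and IL-22 from 0 to 13 without a filter, 2 with DESeq2 and 1 with the block. A fold threshold of 1 gave 1.58 to 2.01 times as many calls, and adjusted p alone 2.47 to 3.42 times, in 10 comparisons. Leaving out 1 library gave IL-17A 26, 24 and 28 calls (unstimulated replicates 1 and 2, IL-17A replicate 2), IL-22 7 and 4 (unstimulated replicate 3, IL-22 replicate 4), and TNF against IL-1β 23 and 22 (IL-1β replicate 2, TNF replicate 3). Members with few counts outside IFNα limit what these libraries can show.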
